A study of Homo sapiens with 15 samples.

Results

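FOXA1, FOXA2, FOXA3, SOX17, HNF4A, PROX1, CDX2 and HHEX are 8 transcription factors of the endoderm and of the organs it forms, and their expression was followed through a differentiation that aims at heart cells. They were chosen by name, and all 8 were found among the 48777 genes of the deposited tables. The cells were H1, an established human embryonic stem cell line, grown on the laminins LN-521 and LN-221 and differentiated towards day 11 committed cardiac progenitors (CCPs). CHIR99021, which activates Wnt signalling, was given at confluence on day 4 for 24 h, and IWP2, which inhibits Wnt secretion, from day 7 for 2 days, as the treatment notes have it. The growth notes in the labels place both molecules on earlier days, and whether day 4 cells were taken before or after CHIR99021 is not given. Bulk RNA-seq of total RNA was done with 3 biological replicates each on day 0 (undifferentiated cells in Nutristem medium), day 4, day 9, day 11 and day 20. Every group is the same cell line, so the groups differ in time and in the media and small molecules given by then. The labels name both laminins for every library, whereas the deposited sample table lists LN-521 alone for day 0 and both for the other days, so day 0 may also differ in its matrix. The labels give day 9 for the libraries of the third time point, where the methods list day 7. The paper's results also name day 9 for the bulk RNA-seq.

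The endoderm is the germ layer of gut, liver, pancreas and lung, and it arises beside the mesoderm from the primitive streak, so that the same Wnt signal serves both fates. FOXA proteins are pioneer factors, which open closed chromatin, and SOX17 is an early determinant of definitive endoderm. HHEX marks anterior endoderm and is needed for the liver bud, HNF4A is a nuclear receptor of hepatocytes and intestinal epithelium, PROX1 acts in liver, lymphatic endothelium and heart muscle, and CDX2 specifies the intestine. Several of them also have roles outside the endoderm: SOX17 and HHEX are made in endothelial cells and CDX2 in trophoblast.

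The 15 libraries held between 11990302 and 33469703 counts on genes, with a median of 22867831. Values are given as the deposited TPM, a level divided by gene length and library size that can be compared between genes, and the replicates are named by their number in the labels. Replicate 2_3 of day 20 stood apart, with an RNA integrity number of 6.1, where the other 14 libraries lay between 8.8 and 10. Of 226 long coding genes with at most 2 counts over all libraries of days 0 to 11, all (100%) had a count in this library, at a median of 8.64 reads per kb, against 69.5% of them and 0.446 reads per kb in replicate 6_1 of day 20 and a median of 0 in the other 13 libraries. In replicate 2 of day 20, 14.6% of them had a count. For the libraries of days 0 to 11 the median of 0 follows from how the genes were picked. The day 20 results are therefore also given without replicate 2_3. The labels name plate 2 for replicates 2 and 2_3 of day 20 alike. The tests took them as separate replicates, and whether they came from separate differentiations is not given. A short gene of 57 bases took 20.0% of all TPM in replicate 3 of day 0 and 17.0% in replicate 2 of day 9, which lowers every other TPM there by that share. The tests used TMM-scaled counts, not TPM.

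Most of the genes lie on different chromosomes of GRCh38 (GENCODE v44), PROX1 at 1:213983181-214041510, HHEX at 10:92689955-92695647, FOXA3 at 19:45863989-45873797 and HNF4A at 20:44355699-44432845 on the plus strand, and CDX2 at 13:27960918-27969315, FOXA1 at 14:37589552-37596059 and FOXA2 at 20:22580998-22585455 on the minus strand. The RefSeq promoter table (GRCh38.p14) held 6 promoters of 5 of the genes, HHEX, CDX2, FOXA1, FOXA3 and HNF4A. It had none for FOXA2, PROX1 and SOX17. The 250 bases before the start are shown for both starts of HNF4A and for CDX2, 2 genes that went from almost no reads to high levels, and for HHEX, which was read at a low level from day 0. Capitals mark matches on either strand to the motifs searched, which were TGTTTAC or TGTTTGC for forkhead factors, AGATAA or TGATAA for the GATA family, GTTAATNAT for HNF1, CAAAGTCCA for HNF4, TTTATNG for CDX factors and TATAAA for the TATA box.
HNF4A, upstream start, chr20:44355449-44355698, plus strand: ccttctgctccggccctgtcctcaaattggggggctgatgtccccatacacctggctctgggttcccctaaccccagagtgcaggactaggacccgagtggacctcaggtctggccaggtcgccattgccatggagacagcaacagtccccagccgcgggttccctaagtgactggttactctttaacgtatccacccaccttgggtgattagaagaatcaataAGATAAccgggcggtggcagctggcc
HNF4A, downstream start, chr20:44400989-44401238, plus strand: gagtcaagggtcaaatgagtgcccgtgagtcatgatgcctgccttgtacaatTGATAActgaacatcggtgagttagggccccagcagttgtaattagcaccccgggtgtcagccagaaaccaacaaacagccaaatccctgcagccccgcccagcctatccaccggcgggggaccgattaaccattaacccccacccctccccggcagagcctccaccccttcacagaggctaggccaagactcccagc
CDX2, chr13:27969316-27969565, minus strand: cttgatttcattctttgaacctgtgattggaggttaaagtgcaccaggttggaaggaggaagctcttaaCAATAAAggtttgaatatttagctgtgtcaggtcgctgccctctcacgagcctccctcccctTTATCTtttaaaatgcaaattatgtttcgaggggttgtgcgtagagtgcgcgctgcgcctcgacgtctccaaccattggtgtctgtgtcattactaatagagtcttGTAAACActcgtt
HHEX, chr10:92689705-92689954, plus strand: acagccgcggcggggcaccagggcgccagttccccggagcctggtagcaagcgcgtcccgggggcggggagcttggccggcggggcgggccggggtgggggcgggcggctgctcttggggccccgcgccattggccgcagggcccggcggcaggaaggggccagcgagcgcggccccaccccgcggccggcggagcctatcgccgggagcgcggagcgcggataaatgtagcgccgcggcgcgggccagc

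CDX2 held 3 matches in these letters, a CDX motif, a GATA motif and, 7 to 13 bases before the start, a forkhead motif. Each HNF4A start had 1 GATA match, and HHEX had none of the 6 motifs. The search took exact letters only (N for any base), so a site that departs from them is not marked. FOXA1 had 1 forkhead match, 229 to 235 bases before the start, and FOXA3 a TATA match that overlaps a CDX match. Over 35116 promoter stretches of this length in the table, 6.09% held the forkhead motif, 14.6% the GATA motif, 8.93% the CDX motif, 10.7% the TATA motif, 0.723% the HNF1 motif and 0.325% the HNF4 motif. The stretches differed in base composition, with a GC content of 45.2% at CDX2, 58.4% and 58.0% at the upstream and downstream start of HNF4A and 81.2% at HHEX, against a median of 58.0% over the table.

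In the pluripotent cells of day 0 and the confluent cells of day 4, 5 of the 8 genes were close to unread. SOX17 had 0, 0 and 1 counts in replicates 1, 2 and 3 of day 0 and 0, 2 and 0 in replicates 1, 2 and 5 of day 4. CDX2 had 0 or 1 count in each of these 6 libraries, HNF4A 0 to 4, FOXA2 0 to 7 and FOXA1 3 to 6. The other 3 genes were read on both days. FOXA3 was at 37.7, 37.7 and 23.6 TPM on day 0 and at 36.5, 31.5 and 33.8 TPM on day 4, the highest of the 8 genes on both days. HHEX was at 4.45, 0.571 and 2.86 TPM on day 0 and at 14.8, 5.98 and 3.595 TPM on day 4, and PROX1 stayed between 0.660 and 2.16 TPM in these 6 libraries. The replicates of the 2 days overlapped for each of these 3 genes.

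The comparison of day 4 with day 0 covers growth to confluence, and perhaps also a change of matrix and CHIR99021, as above. FOXA3, PROX1 and HHEX alone passed the filter on low counts, and edgeR called 0 of them, as it called 0% of the 20964 genes tested in either direction. At an unadjusted p under 0.05 the numbers were 0 of the 3 genes and 741 of all genes, and DESeq2 and limma also called 0 of both. The log2 fold change of HHEX was 1.61 (SE 0.78, edgeR adjusted p = 0.885), that of PROX1 0.13 (SE 0.39, adjusted p = 0.952) and that of FOXA3 -0.01 (SE 0.16, adjusted p = 0.994), the last changing its sign in 8 of 11 alternatives.

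Between day 4 and day 9, 7 of the 8 genes rose in edgeR's test at an adjusted p under 0.05, all but FOXA3. Of the 21252 genes tested, 24.3% were higher on day 9 and 24.7% lower. The median log2 fold change was 7.23 for the 8 genes and 0.01 for all genes tested, and the former rests on fitted values of genes near 0 on day 4. In bulk RNA, more cells of a type and more RNA per cell cannot be told apart. The plot of TPM by day shows the step from near 0 for 5 genes and the flat line of FOXA3.

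**Figure D1:**
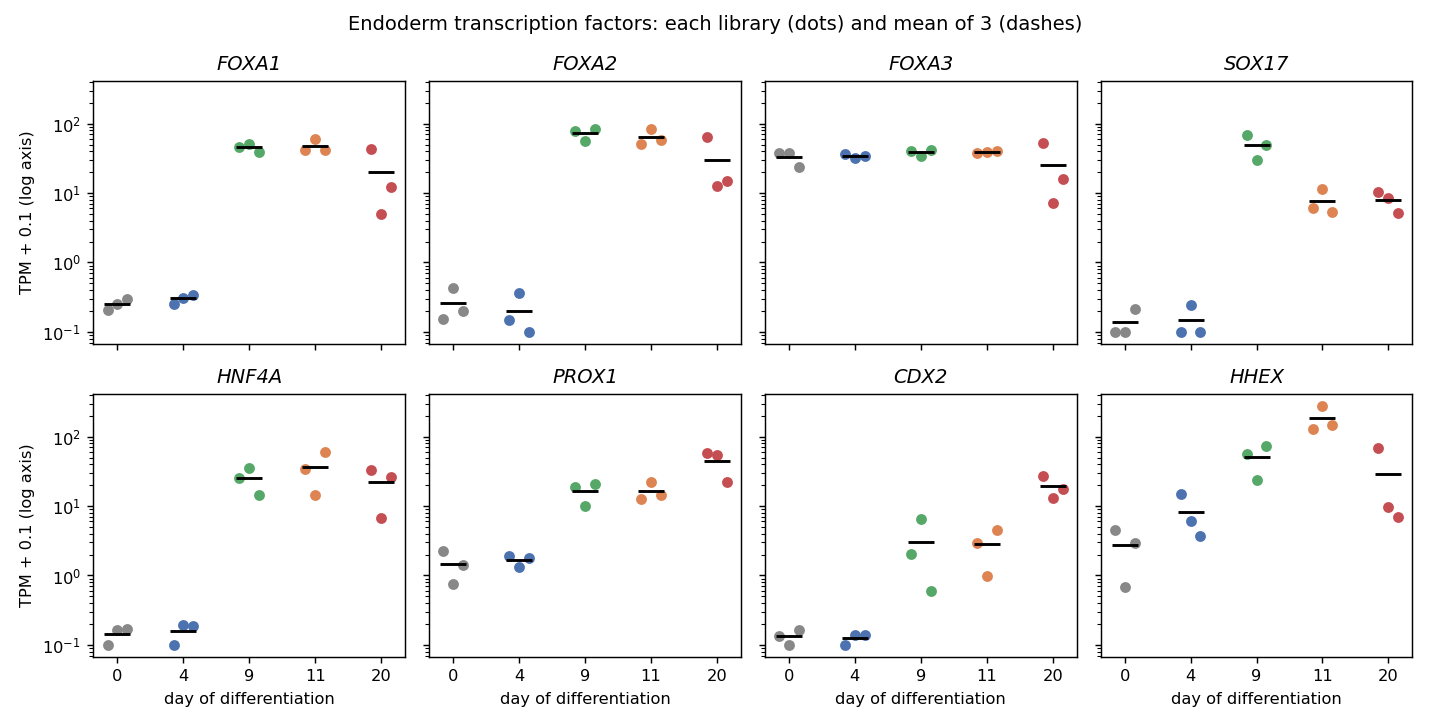
TPM of the 8 transcription factors (log axis, 0.1 added so that 0 can be shown) by day of differentiation, with a dot for each of the 3 libraries of a day and a dash at their mean. FOXA1, FOXA2, SOX17 and HNF4A stand below 0.4 TPM on days 0 and 4 and above 14 TPM on day 9, FOXA3 is level until day 11, SOX17 is highest on day 9, HHEX on day 11, and CDX2 and PROX1 are highest on day 20.

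FOXA1 and FOXA2, which act together in foregut and liver, were the most even of the genes that rose. FOXA1 was at 46.4, 51.2 and 39.3 TPM in replicates 2, 6_1 and the unnumbered replicate of day 9 (45.6 ± 5.97, SD, n = 3), against 0.202 ± 0.0469 on day 4. FOXA2 was at 79.3, 55.4 and 84.4 TPM in the same order (73.0 ± 15.5), against 0.101 ± 0.137 on day 4. All day 9 libraries were thus far above all earlier ones for both genes. FOXA2 had the highest mean TPM of the 8 genes on day 9. The log2 fold changes were 7.83 for FOXA1 (SE 0.21, edgeR adjusted p = 3.83e-07) and 9.51 for FOXA2 (SE 0.51, adjusted p = 9.03e-06).

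SOX17, at 8:54457935-54460892 on the plus strand, and HNF4A went the same way with wider replicates. SOX17 was at 67.5, 30.02 and 49.5 TPM on day 9 (49.0 ± 18.8), with 2022 counts over the day's 3 libraries against 2 on day 4. The ratio of the pooled counts, each divided by the library totals, was 1230, with an exact 95% interval of 340.1 to 10164 that covers counting error only. HNF4A was at 25.1, 35.1 and 14.6 TPM (24.9 ± 10.2), against 0.0602 ± 0.0521 on day 4. Replicate 6_1 was the lowest of the day for SOX17 and the highest for HNF4A. The fitted log2 fold changes were 9.97 (SE 0.70, edgeR adjusted p = 3.40e-05) for SOX17 and 8.77 (SE 0.58, adjusted p = 2.56e-05) for HNF4A. With so few counts on day 4 their size depends on the prior count of the fit.

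PROX1, HHEX and CDX2 made smaller or less even steps. PROX1 was at 18.7, 10.0 and 21.0 TPM on day 9 (16.6 ± 5.78), against 1.57 ± 0.324 on day 4, a log2 fold change of 3.44 (SE 0.35, edgeR adjusted p = 0.000183). HHEX was at 55.6, 23.4 and 72.3 TPM (50.4 ± 24.9), against 8.14 ± 5.92, a log2 fold change of 2.66 (SE 0.61, adjusted p = 0.00837). For both genes all day 9 libraries lay above all day 4 libraries. The call of HHEX was lost without the unnumbered replicate of day 9 (log2 fold change 2.31, adjusted p = 0.0711) and without a filter on low counts (2.64, adjusted p = 0.0959). CDX2 was at 1.92, 6.44 and 0.492 TPM (2.95 ± 3.11), with 39, 145 and 15 counts. It spanned a 10.4-fold range in normalised CPM within the day, the widest of the 8 genes, and the pooled counts per library total were 121 times those of day 4 (2 counts there, interval 33.1 to 1007). Its call (fitted log2 fold change 6.63, SE 1.29, adjusted p = 0.00406) was also lost without the filter (adjusted p = 0.0518).

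FOXA3, which acts in liver and gut, was read throughout. It was at 40.4, 34.0 and 41.4 TPM on day 9 and at 38.2, 39.5 and 39.7 TPM on day 11. From day 0 to day 11 its mean moved only between 33.02 ± 8.13 and 39.1 ± 0.837 TPM, and neighbouring days overlapped throughout. The log2 fold change from day 4 to day 9 was 0.21 (SE 0.16, edgeR adjusted p = 0.289).

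From day 9 to day 11, the step to the CCP stage, SOX17 fell and no other gene of the 8 passed edgeR's test. Of the 20679 genes tested, 1.39% were higher on day 11 and 1% lower. SOX17 was at 5.97, 11.2 and 5.32 TPM in replicates 2, 5 and 6 of day 11 (7.49 ± 3.22), all below the lowest day 9 library at 30.02 TPM. The log2 fold change was -2.80 (SE 0.42, adjusted p = 0.0240). The direction held in each of 13 alternatives, with values from -3.18 to -2.45 and adjusted p-values from 8.12e-10 to 0.110. The call was lost without replicate 2 of day 9 (adjusted p = 0.110), the unnumbered replicate of day 9 (0.0939), replicate 2 of day 11 (0.0919) or replicate 6 of day 11 (0.0709).

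HHEX reached its highest level on day 11, at 130.3, 277.0 and 149.2 TPM (185.5 ± 79.8), and was then the most abundant of the 8 genes. All 3 libraries lay above the highest of day 9 at 72.3 TPM. The log2 fold change was 1.79 (SE 0.47) and did not pass edgeR's test (adjusted p = 0.110), while DESeq2 called it (1.78, adjusted p = 0.00210). Over the 13 alternatives the adjusted p-values ran from 0.00210 to 0.429. The other genes of the 8 overlapped their day 9 libraries. HNF4A was at 33.6, 14.2 and 59.9 TPM and CDX2 at 2.85, 0.888 and 4.38 TPM, with replicate 6 highest and replicate 5 lowest for both. FOXA1 was at 41.0, 60.9 and 41.7 TPM, FOXA2 at 50.7, 83.5 and 57.2 TPM and PROX1 at 12.7, 22.0 and 14.6 TPM, with replicate 5 highest for all 3. Their log2 fold changes lay between -0.27 and 0.50, with edgeR adjusted p-values from 0.657 to 0.983.

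From day 11 to day 20, edgeR called 0 of the 8 genes. Among all 21398 genes tested, 1.12% were higher on day 20 and 0.435% lower. At an unadjusted p under 0.05 there were 3 of the 8 genes, CDX2 and PROX1 higher and HHEX lower, and 3564 genes in all. DESeq2 called 2 of the 8, and the fit of all 15 libraries and limma 1 each. The plot of log2 fold changes sets the 4 steps side by side.

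**Figure D2:**
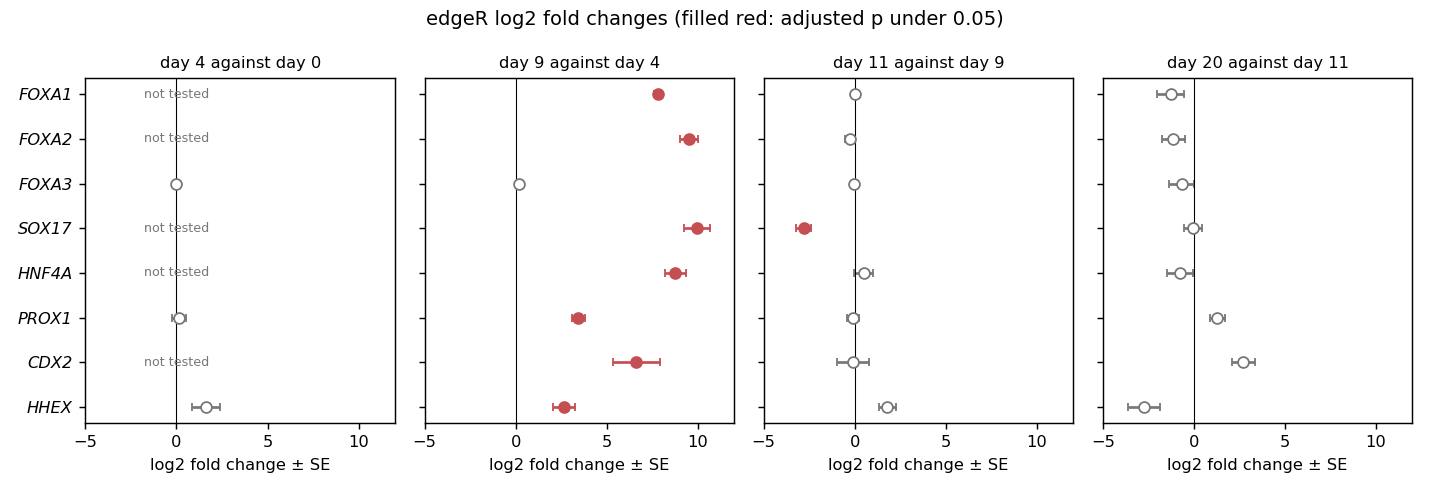
edgeR log2 fold changes (points) with standard errors (bars) of the 8 genes in the comparisons of consecutive days, 3 libraries against 3. Filled red points passed an adjusted p under 0.05, which are 7 genes from day 4 to day 9 and SOX17 from day 9 to day 11; genes filtered out for low counts are marked as not tested.

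CDX2 and PROX1 were at their highest on day 20. CDX2 was at 27.0, 12.9 and 17.4 TPM in replicates 2, 2_3 and 6_1 of day 20 (19.1 ± 7.21), all above the highest earlier library at 6.44 TPM. Its log2 fold change from day 11 was 2.72 (SE 0.63, edgeR adjusted p = 0.0763), and 3.02 (adjusted p = 0.0653) without replicate 2_3. DESeq2 (2.64, adjusted p = 0.00420), the fit of all 15 libraries (2.70, adjusted p = 0.0314) and limma on log2(TPM + 1) (2.51, adjusted p = 0.0424) called it, and over 13 alternatives the adjusted p ran from 0.00420 to 0.327. PROX1 was at 57.5, 54.9 and 21.9 TPM (44.8 ± 19.9), and the lowest of these was just below the highest of day 11 at 22.0 TPM. Its log2 fold change was 1.29 (SE 0.39, adjusted p = 0.145), and 1.28 (adjusted p = 0.164) without replicate 2_3.

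HHEX was far below its day 11 level in 2 of the 3 replicates of day 20. It was at 69.3, 9.59 and 6.85 TPM (28.6 ± 35.3), all below the lowest day 11 library at 130.3 TPM. The log2 fold change of -2.74 (SE 0.89) did not pass edgeR's test (adjusted p = 0.175), nor did the -2.28 without replicate 2_3 (adjusted p = 0.242). It passed without replicate 2 (-4.75, adjusted p = 0.0373) and in DESeq2 (-2.76, adjusted p = 0.0211). SOX17 was at 10.2, 8.49 and 4.99 TPM, close to its day 11 level (log2 fold change -0.05, SE 0.47, adjusted p = 0.974).

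FOXA1, FOXA2, FOXA3 and HNF4A had log2 fold changes from day 11 between -1.28 and -0.68, with standard errors between 0.65 and 0.73 and edgeR adjusted p-values from 0.438 to 0.680. FOXA1 was at 43.3, 4.87 and 12.1 TPM, FOXA2 at 63.7, 12.5 and 14.8, FOXA3 at 52.2, 6.98 and 15.9 and HNF4A at 32.9, 6.56 and 26.4. Replicate 2 was within the range of days 9 and 11 for FOXA1, FOXA2 and HNF4A and above it for FOXA3, and replicate 2_3 was the lowest for all 4. Without replicate 2_3 the 4 log2 fold changes lay between -0.79 and -0.20. Without replicate 2 they were -2.63 for FOXA1 (adjusted p = 0.0591), -2.43 for FOXA2 (0.0517), -1.92 for FOXA3 (0.0940) and -1.23 for HNF4A (0.485), so the size of these differences rests on single libraries.

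Against day 0, 6 of the 8 genes were higher on day 20 in edgeR's test (adjusted p from 0.000416 to 0.00284), where 16.1% of the 21988 genes tested were higher and 11.3% lower. The median log2 fold change was 7.08 for the 8 genes and 0.11 for all genes tested. The pooled counts per library total were 728.2 times those of day 0 for CDX2 (2 counts on day 0, interval 201.1 to 6019) and 333 times for SOX17 (1 count on day 0, interval 59.2 to 13190). PROX1, which was already read on day 0, had a log2 fold change of 4.75 (SE 0.55). HHEX (3.29, SE 1.08, adjusted p = 0.0548) and FOXA3 (-0.53, SE 0.68, adjusted p = 0.606) did not pass. The call of HHEX turned on the library, since it passed without replicate 2_3 (3.76, adjusted p = 0.0267) or 6_1 (3.74, adjusted p = 0.0387) and with all 15 libraries in a single fit (3.31, adjusted p = 0.0114), and FOXA3 passed as lower without replicate 2 (-1.79, adjusted p = 0.0374). The other 6 passed in all 11 alternatives.

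With the days set in order of mean TPM, the highest day stood apart from the next for SOX17 (day 9), HHEX (day 11), CDX2 and PROX1 (both day 20), as no libraries of the neighbouring days overlapped. FOXA1 and HNF4A were highest on day 11 and FOXA2 on day 9, and for these 3 genes days 9 and 11 overlapped, as did the lower of them with day 20. For PROX1 the gap was narrow, at 21.9 TPM in the lowest library of day 20 against 21.0 in the highest of day 9, and the 22.0 of replicate 5 of day 11, a day with nearly the same mean as day 9, lay above the former. Days 9 and 11 overlapped for PROX1 and CDX2, days 11 and 20 for SOX17, and day 20 of HHEX overlapped days 9 and 4. Days 0 and 4 overlapped for all 8 genes.

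The replicates were ordered differently from gene to gene on days 9 and 11, while on day 20 replicate 2 was the highest for all 8 genes and replicate 2_3 the lowest for 6 in normalised CPM. Among these 6, HHEX was lowest in replicate 6_1 by TPM, at 6.85 against 9.59 in replicate 2_3. The plot of deviations shows each library against the mean of its day, in log2 CPM (counts scaled to library size) after TMM scaling, which makes libraries comparable.

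**Figure D3:**
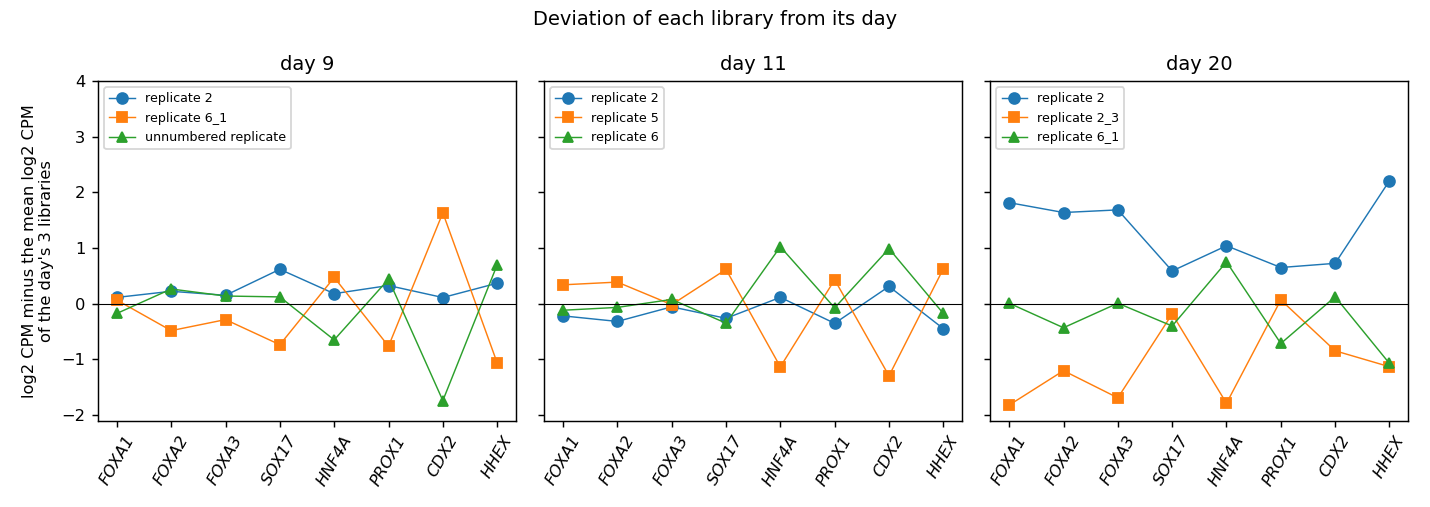
Deviation of each library from the mean of its day's 3 libraries, in normalised log2 CPM, for the 8 genes on days 9, 11 and 20. On day 11 HNF4A and CDX2 are highest in replicate 6 and lowest in replicate 5, while FOXA1, FOXA2, SOX17, PROX1 and HHEX are highest in replicate 5; on day 20 replicate 2 is highest for all 8 genes.

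On day 11, HNF4A differed 4.46-fold and CDX2 4.87-fold between replicate 6, the highest, and replicate 5, the lowest. FOXA1, FOXA2, SOX17, PROX1 and HHEX were highest in replicate 5 and spanned 1.47-fold to 2.11-fold. FOXA3 spanned 1.10-fold. The SD of log2 CPM was 1.08 for HNF4A and 1.17 for CDX2, against a median of 0.35 over 24767 genes on that day. On day 9 the library from plate 6 (replicate 6_1) was likewise the highest for HNF4A and CDX2 and the lowest for FOXA2, SOX17, PROX1 and HHEX. The plate 6 libraries of both days were also sequenced in the same lane (lane 2), so plate and lane cannot be told apart here.

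On day 20 the spread was widest for FOXA1 (12.4-fold), FOXA3 (10.4-fold), HHEX (10.1-fold), FOXA2 (7.17-fold) and HNF4A (7.11-fold). CDX2 (2.97-fold), PROX1 (2.58-fold) and SOX17 (1.98-fold) were closer. The SD of log2 CPM lay between 0.52 and 1.91, against a median of 0.65 over all genes on that day. Reads at the density of the silent genes would make up 45.3% of the FOXA1 counts of replicate 2_3, 33.6% of those of HNF4A, 31.6% of FOXA3, 26.0% of SOX17 and 4.01% of PROX1. In replicate 6_1 the share was at most 2.01%. The low FOXA1, FOXA2 and HHEX of replicate 6_1 (12.1, 14.8 and 6.85 TPM) thus stand in a library with few such reads, beside HNF4A at 26.4 TPM.

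Of 21 other regulators of endoderm and foregut, 17 could be tested from day 4 to day 9, and 13 of these were higher on day 9 and 0 lower, where 24.3% of all genes tested were higher and 24.7% lower. Their median log2 fold change was 2.10, against 0.01 over all genes. The most abundant were GATA4 and GATA6, zinc finger factors of endoderm and heart, CXCR4, a chemokine receptor used to sort definitive endoderm, and TBX3, a T-box factor. GATA4 went from below 0.3 TPM on days 0 and 4 to 188.8, 137.1 and 138.2 TPM on day 9, and TBX3 to 78.6, 69.9 and 71.4. CXCR4 was at 58.7, 17.9 and 219.1 TPM on day 9 in replicates 2, 6_1 and unnumbered, with replicate 6_1 again lowest, as for SOX17 and HHEX. From day 9 to day 11, 2 of 18 tested were higher and 1 lower (1.39% and 1% of all genes), and from day 11 to day 20 edgeR called 0 of 19 (6 at an unadjusted p under 0.05, beside 3564 of all 21398 genes). Against day 0, 9 of 17 were higher on day 20 and 0 lower (16.1% and 11.3% of all genes).

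Secreted proteins of liver and yolk sac, many of them known HNF4A and FOXA targets, rose in part over the same steps. Of 16 such genes, 9 of the 12 tested rose from day 4 to day 9 (24.3% of all genes) and 3 of 13 from day 9 to day 11 (1.39% of all genes), with none lower in either. AFP, the fetal serum protein, was at 231.0, 35.8 and 581.4 TPM in replicates 2, 5 and 6 of day 11, the order of HNF4A (33.6, 14.2 and 59.9 TPM). APOA1, an apolipoprotein, kept that order at 668.0, 123.9 and 842.1 TPM, as did every gene of the list but TTR and VTN. These were highest in replicate 5, with TTR at 302.8, 413.8 and 153.5 TPM and VTN at 114.1, 149.2 and 121.5 TPM. On day 20, AFP was at 13772, 515.8 and 14210 TPM in replicates 2, 2_3 and 6_1, and the 16 genes summed to 26272, 1020 and 33264 TPM. In replicate 6_1 the sum was thus at its highest while FOXA1, FOXA2 and HHEX were low. From day 11 to day 20 all 16 had positive log2 fold changes (median 3.72, against 0.07 over all genes), but edgeR called 0 of them. At an unadjusted p under 0.05 there were 8, beside 3564 of all 21398 genes tested. Against day 0 edgeR called all 16 higher on day 20, beside 16.1% of all genes.

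Genes of the intestinal epithelium stayed at lower levels, with a sum of at most 133 TPM in any library. Of 10 genes, 4 of the 5 tested rose from day 4 to day 9, beside the 24.3% of all genes, and VIL1, a microvillus protein, was at 31.5, 31.0 and 33.4 TPM on day 9. FABP1, the fatty acid binding protein of liver and gut, reached 10.8, 6.30 and 80.7 TPM in replicates 2, 2_3 and 6_1 of day 20, where CDX2 was at 27.0, 12.9 and 17.4 TPM. VIL1 (30.4, 7.15 and 24.4 TPM) and CDH17 (26.9, 5.16 and 5.87 TPM) had the order of CDX2 in these 3 libraries. FABP1 and all other genes of the list did not, with FABP2 at 10.7, 29.1 and 8.25 TPM and LGR5 at 0.184, 2.82 and 0.984 TPM. From day 11 to day 20, CDH17, an intestinal cadherin named here because it was the gene that passed (log2 fold change 8.44, SE 1.14, edgeR adjusted p = 0.0213), was the 1 of 9 tested that was called, where 1.12% of all genes were higher.

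Among genes beside the 8 on the chromosome, LINC00261, a noncoding RNA on the strand of FOXA2 and downstream of it, had 0 to 2 counts in the libraries of days 0 and 4. It was at 50.2, 38.9 and 54.6 TPM on day 9, 38.2, 41.8 and 80.9 TPM on day 11 and 15.1, 6.70 and 12.7 TPM on day 20. Its rise from day 4 to day 9 (log2 fold change 10.66, SE 0.42, edgeR adjusted p = 1.85e-06) went with that of FOXA2, and no exon of the pair overlaps. On day 11 it was highest in replicate 6, where FOXA2 was not. PROX1-AS1 lies opposite PROX1 and shares 163 exon bases with it. It had 1 to 4 counts per library on days 0 and 4, 88 to 245 on day 9 and 866, 257 and 164 on day 20, where PROX1 had 3190, 1924 and 869. TTC6 shares 16 exon bases with FOXA1, and MIR3646 lies in HNF4A with at most 3 counts per library. Whether counting used the strand is not given, so reads in shared bases cannot be assigned to either gene of a pair.

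**Figure D4:**
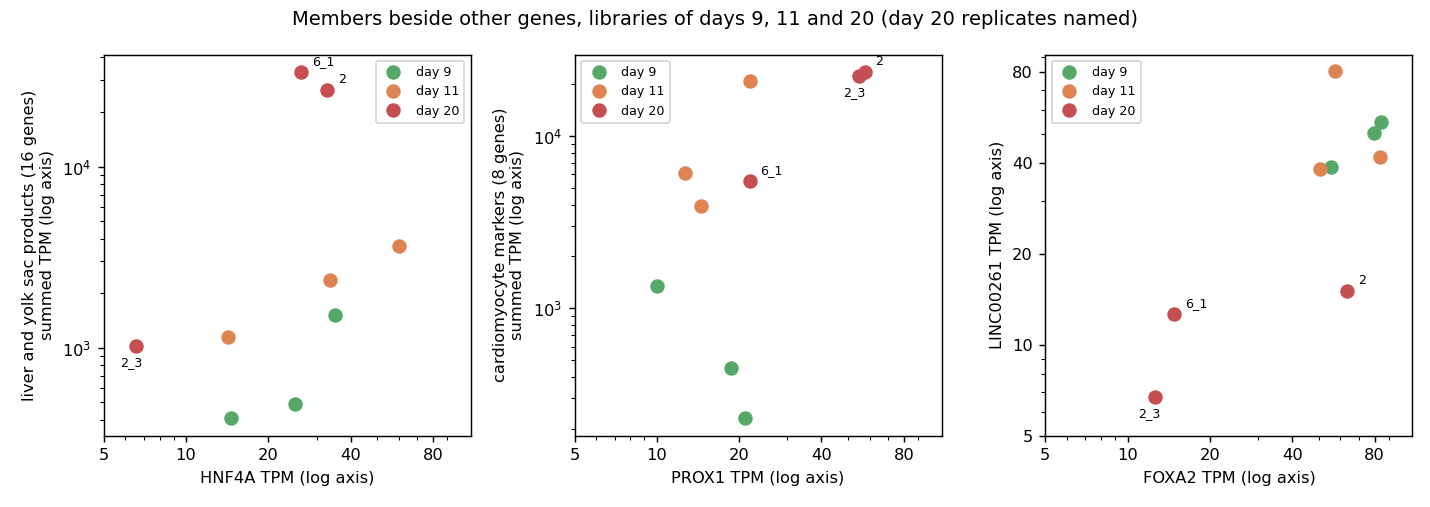
HNF4A, PROX1 and FOXA2 (TPM, log axes) against the summed TPM of 16 liver and yolk sac products, the summed TPM of 8 cardiomyocyte markers and the TPM of LINC00261, for the 9 libraries of days 9, 11 and 20, 1 dot per library. Day 20 replicates 2 and 6_1 hold the highest liver sums at HNF4A levels within the range of earlier days, and replicates 2 and 2_3 hold both the highest PROX1 and the highest cardiomyocyte sums.

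Markers of other cell types were read in the same libraries. The 8 cardiomyocyte markers summed to 19.2 to 28.2 TPM on day 0, 229.3 to 1347 on day 9, 3910 to 21001 on day 11 and 5500 to 23591 on day 20, and no marker was at 0 over a whole day. On day 20 they summed to 23591, 22214 and 5500 TPM in replicates 2, 2_3 and 6_1, the order of PROX1 (57.5, 54.9 and 21.9 TPM). On day 9 the order was reversed, with 450.9, 1347 and 229.3 TPM in replicates 2, 6_1 and unnumbered, where PROX1 was at 18.7, 10.0 and 21.0 TPM. On day 11 their highest library, replicate 5 at 21001 TPM, was also the highest for PROX1, FOXA1, FOXA2, SOX17 and HHEX and the lowest for HNF4A and CDX2. Mesenchymal markers, a list of 7 genes, summed to 3634, 1401 and 7072 TPM in replicates 2, 5 and 6 of day 11, lowest where the cardiomyocyte sum was highest. On day 9 they had their highest sum in replicate 6_1, as the cardiomyocyte markers did, at 1821, 3673 and 1777 TPM in replicates 2, 6_1 and unnumbered. On day 20 they were highest in replicate 6_1 at 22573 TPM and lowest in replicate 2_3 at 1380 TPM. The part of these cells in the levels of the 8 genes was not tested.

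For SOX17 and HHEX, endothelial cells are the other known source. The 10 endothelial markers summed to 384.9, 487.9 and 792.3 TPM in replicates 2, 6_1 and unnumbered of day 9, 400.1 to 648.3 TPM on day 11 and 125.9 to 598.4 TPM on day 20, with none at 0 over a whole day. The sum was already 250.7 to 439.4 TPM on day 0. On day 9 most of it was KDR, a VEGF receptor, at 318.1 to 653.1 TPM. In replicates 2, 5 and 6 of day 11 the sum was 400.1, 589.1 and 648.3 TPM and KDR 249.5, 333.7 and 532.4 TPM. Both were thus highest in replicate 6, where SOX17 was lowest. The defining markers were lower and did not share 1 pattern. VWF, the clotting factor of endothelium, was at 22.0, 5.43 and 66.4 TPM on day 9 and at 3.84, 13.4 and 0.630 TPM on day 11, lowest in replicate 6_1 of day 9 and highest in replicate 5 of day 11, as SOX17 was within each of these days. CDH5, the endothelial cadherin, was at 1.83, 1.502 and 3.13 TPM on day 9 and at 9.65, 52.5 and 1.44 TPM on day 11. PECAM1, an adhesion molecule, was at 0.783, 0.590 and 1.20 TPM on day 9 and at 1.16, 12.7 and 0.618 TPM on day 11. On day 11 both were highest in replicate 5, where SOX17 and HHEX were highest. Between these days mean CDH5 went from 2.15 to 21.2 TPM and mean PECAM1 from 0.859 to 4.83 TPM. Mean VWF went from 31.3 to 5.94 TPM and mean SOX17 from 49.0 to 7.49 TPM. TEK and FLT1, also of this list, were read from day 0, with TEK at 51.6, 94.3 and 44.6 TPM there. On day 11 TEK was at 90.9, 85.0 and 78.2 TPM in replicates 2, 5 and 6, highest in replicate 2. FLT1 was at 36.0, 56.2 and 32.9 TPM, highest in replicate 5. From day 9 to day 11 edgeR called 0 of the 10 genes (4 at an unadjusted p under 0.05, beside 3517 of all 20679 genes), where it called 1.39% of all genes higher and 1% lower. The part of endothelial cells in the levels of SOX17 and HHEX was not tested. For PROX1, 3 markers of lymphatic endothelium had their highest sums in the early cells, at 285.9 to 435.3 TPM on day 0 and 340.4 to 372.3 TPM on day 4. They summed to 30.1 to 34.6 TPM on day 9 and to 64.7, 86.0 and 165.6 TPM in replicates 2, 2_3 and 6_1 of day 20, the reverse of the order of PROX1. Most of the sum was PDPN in every library, at 61.0, 73.2 and 162.3 TPM in these day 20 replicates. LYVE1, the defining marker of the 3, was at most 0.716 TPM in every library but replicate 2_3 of day 20, at 5.80 TPM. For CDX2, the trophoblast and amnion markers, 6 genes, summed to 103.0 to 146.2 TPM on day 9 and to 15.9, 52.1 and 34.6 TPM in replicates 2, 2_3 and 6_1 of day 20, where CDX2 was highest in replicate 2. Primitive streak genes, a list of 8, stood at 23.8 to 67.6 TPM on day 9 and at 10.3 to 17.5 TPM on day 11. On day 20 they summed to 9.24, 55.2 and 10.1 TPM in replicates 2, 2_3 and 6_1. Replicate 2_3 is the library with a count on all the silent genes. The part of such reads in its LYVE1 value and in its sums was not tested. The pluripotent markers, 6 genes, summed to at least 4179 TPM on days 0 and 4 and at most 113.9 TPM on day 20. The 6 epithelial markers were between 1139 and 6711 TPM in all libraries, lowest in replicate 2_3 of day 20.

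The genes whose normalised log2 CPM ran most like each of the 8 over the 15 libraries were sought among 16220 coding genes, as a description over libraries that share days. FOXA1 was closest to SYTL5 (Pearson's r = 0.995) and FOXA2 to TBX3 (0.992). FOXA1 and FOXA2 were among the 3 closest of each other (r = 0.988), and TBX3 was also among the 3 of FOXA1 (r = 0.990). HNF4A was closest to HAND1 (r = 0.988), a factor of heart and extraembryonic mesoderm, PROX1 to RBM24 (0.983), a splicing regulator of heart muscle, and SOX17 to RARB (0.980), a retinoic acid receptor. CDX2 was closest to SLC17A1 (0.981), a phosphate and urate transporter of kidney and liver, HHEX to CBLB (0.944), a ubiquitin ligase, and FOXA3 to APBA3 (0.948), an adaptor protein. The libraries of a day share their stage, and the coefficients were not computed within days. For FOXA3 and APBA3, Spearman's rho was 0.393.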

How the data were processed

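Bulk RNA-seq of H1 cells on days 0, 4, 9, 11 and 20 was analysed, with 3 biological replicates per day, grouped by the labels. The authors aligned paired-end reads of ribosome-depleted total RNA (TruSeq stranded) to GRCh38 with STAR 2.5.2b and deposited raw counts per gene from featureCounts 1.5.1, without ribosomal RNA genes and mitochondrial genes. The authors also deposited TPM computed from these counts. The deposited sample table lists the RNA integrity number (a score), the fraction of uniquely mapped reads and other labels, the lane among them. Library totals of 11990302 to 33469703 counts set the precision, and intervals cover counting error only.

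The quasi-likelihood test of edgeR 4.0.16 (R 4.3.3, robust, two-sided) was run on the counts of the 6 libraries of the days compared, with TMM scaling, after filterByExpr at 10 counts and a total of 15. The threshold was an adjusted p of 0.05 (Benjamini-Hochberg, all tested genes). Standard errors are the size of the log2 fold change divided by the square root of F. GENCODE v44 held 46872 of the 48777 identifiers and gave symbols and positions. Alternatives were DESeq2 1.42.0, upper-quartile scaling, no filter, all 15 libraries in a single fit, limma 3.58.1 on log2(TPM + 1), plate or lane as a block, and leaving out each replicate. The edgeR code was also run on simulated counts, with the same spread for all genes and changes only in well-read genes. That run does not bear on genes near 0 counts or with wide replicates. Genes named beside the 8 were up to 4 per list with the highest mean TPM on any day, exon neighbours, and the 3 coding genes closest to each of the 8 in log2 CPM (prior count 2). CDH17, CDH5, PECAM1, TTR and VTN were named outside this rule. The 8 genes and the lists were chosen with earlier results of these data known. Single-cell libraries were not analysed here.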

Additional observations from a re-analysis of the deposited data

How the results depend on the processing

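Under the alternatives, 425 log2 fold changes of the 8 genes were computed, and each that changed its sign belongs to a value that did not pass as reported. From day 0 to day 4, FOXA3 (-0.01) became 0.015 with upper-quartile scaling, 0.0049 with no filter, 0.0020 with all 15 libraries and 0.067 in limma. From day 9 to day 11, FOXA1 (0.01) became -0.020 with upper-quartile scaling, -0.27 with the plate as a replicate block and -0.0023 with the lane as a block, FOXA3 (-0.04) became 0.025 in limma and 0.037 with the plate, PROX1 (-0.09) became 0.012 in limma, and CDX2 (-0.10) became 0.091 in limma and 0.14 with the lane. From day 11 to day 20, SOX17 (-0.05) became 0.028 with upper-quartile scaling, 0.084 in limma and 0.23 with the plate. With a replicate left out, FOXA3 (-0.10 to 0.062) and PROX1 (-0.24 to 0.52) changed sign from day 0 to day 4, FOXA1 (-0.18 to 0.12), FOXA3 (-0.17 to 0.033), HNF4A (-0.11 to 0.89), PROX1 (-0.39 to 0.11) and CDX2 (-0.65 to 1.09) from day 9 to day 11, and SOX17 (-0.42 to 0.30) from day 11 to day 20. The cause was not tested.

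The number of the 8 genes called moved by more than 1.5 times in 2 comparisons. From day 9 to day 11 it was 2 in DESeq2 against 1 in edgeR, and 0 to 1 with a replicate left out, being 0 without replicate 2 or the unnumbered replicate of day 9 or without replicate 2 or 6 of day 11. From day 11 to day 20 it was 2 in DESeq2, 1 with all 15 libraries and 1 in limma against 0 in edgeR, and 0 to 1 with a replicate left out, being 1 without replicate 2 of day 20. Over all genes, DESeq2 called 1593 from day 9 to day 11 (edgeR 495) and 2045 from day 11 to day 20 (edgeR 332).

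The plate numbers were tried as pairs. With the plate as a replicate block, 1 of the 8 genes was called from day 9 to day 11 and 0 from day 11 to day 20, as without it, while the calls over all genes went to 1971 and 3. Deviations from the day means correlated between libraries of the same plate at 0.10 (plate 2) and 0.30 (plate 6) for days 9 and 11, and at -0.14 and 0.01 (plate 2) and 0.35 (plate 6) for days 11 and 20. Not every pair passed 0.1, so the plates were not taken as pairs, and whether plate 6 libraries share more than a number was not tested. The plate was not fitted for the other comparisons, whose libraries share fewer than 2 plate numbers. The lane as a block, also fitted from day 4 to day 9, gave 7 of the 8 genes called there, as without it.

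Limits: 3 libraries per day leave few degrees of freedom, so that adjusted p-values of single genes move with 1 library, and 5 of the 8 genes had too few counts on days 0 and 4 to be tested between them. Replicate 2_3 of day 20 carries reads on all of the genes picked as near silent on earlier days, and replicate 6_1 on many of them. Replicates 2 and 2_3 of day 20 share a plate number. All values come from a single cell line.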
